A study of Mus musculus with 28 samples.

Results

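The mitochondrial ribosomal protein (MRP) genes are nuclear genes whose products form the protein part of the mitochondrial ribosome. They were taken as every protein-coding gene of the GRCm38 annotation whose symbol starts with Mrpl or Mrps followed by a digit, which gave 78 genes of the 53342 gene identifiers in each count table, with 5 pseudogenes left out. Of the 78 genes, 49 have an Mrpl symbol and 29 an Mrps symbol. By the place of the protein, 51 belong to the large subunit and 26 to the small subunit, since Mrps30 and Mrps18a encode large-subunit proteins in spite of their symbols, and Mrps36 encodes a subunit of the 2-oxoglutarate dehydrogenase complex of the citric acid cycle. In 44 genes the protein has a counterpart in bacterial ribosomes, in 29 it is specific to mitochondria, 3 are the paralogs of bacterial S18 (Mrps18a, Mrps18b and Mrps18c), and Mrpl55 was left unclassified. The genes lie on 17 chromosomes, all 78 have a row in each of the 3 tables, and all 78 passed the filter on low counts in each of the 8 comparisons.

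Mitochondrial ribosomes sit in the matrix, close to the inner membrane, and translate the few messages of the mitochondrial genome, which encode core subunits of the respiratory chain and of ATP synthase. Their ribosomal RNAs come from mitochondrial DNA, whereas every MRP is translated by cytosolic ribosomes and imported, so a tagged cytosolic ribosome can carry an MRP message. Compared with bacterial ribosomes they hold less RNA and more protein, and the mitochondria-specific proteins lie largely on the outside of the particle. In astrocytes, mitochondria reach into the fine processes, where ion and glutamate uptake uses ATP.

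The study asked how loss of 1 gene from astrocytes (cKO, conditional knockout) alters the cortex. The cKO mice carried mGFAP-Cre, a Cre recombinase under the mouse GFAP promoter that is active in astrocytes, with loxP/loxP alleles of the targeted gene, and Ctrl mice were sex-matched littermates with loxP/loxP or loxP/+ alleles of it. Bulk RNA-Seq was made from cerebral cortex of 4 Ctrl and 4 cKO mice at P24 (postnatal day 24) and of 4 Ctrl and 4 cKO mice at P17. For TRAP-Seq (translating ribosome affinity purification) at P24, mice also carried a Cre-dependent EGFP/Rpl10a, a tagged protein of the cytosolic ribosome, and RNA was read before the pull-down with anti-GFP antibodies (Input) and after it (IP) in 3 Ctrl and 3 cKO mice. Each library came from 1 mouse, and the 2 fractions of a TRAP mouse share it. As IP libraries exist for both genotypes, the driver is taken to be present in the TRAP Ctrl mice too, although their labels name only Ctrl. By the paper's definitions, the driver with loxP/loxP alleles makes a cKO mouse and with loxP/+ alleles a conditional heterozygote. Which alleles the TRAP Ctrl mice carried is therefore not settled here. Controls of the TRAP and bulk comparisons may differ in genotype.

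Total counts were 8855488 to 14575306 per bulk library and 18433087 to 27242445 per TRAP library. In Ctrl mice all 7 astrocyte markers were higher in IP than in Input (median log2 difference 3.89), and 5 of 6 neuron, 6 of 6 microglia and 4 of 4 endothelial markers were lower, although the summed neuron markers still stood at 2165 to 2673 CPM (counts per 1000000 counts of a library) in Ctrl IP and 2263 to 2352 CPM in cKO IP. Input of cKO replicate 1 stood apart from the other Input libraries, so values without it are given beside those that use it. In P24 bulk, cKO replicate 1 stood apart from the other cKO mice in Mrps6 and also across genes. Its counts differed from theirs at a chi-square per degree of freedom of 12.7 to 15.8, against 3.46 to 5.25 among the others. CPM below are scaled by TMM factors (trimmed mean of M values) unless library size is named. Genes were called by edgeR's quasi-likelihood test with the adjusted p (Benjamini-Hochberg, across the whole table of a comparison) below 0.05. Counts at an unadjusted p under 0.05 are given without the share of all genes.

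Promoter windows of 300 bases, from 250 before to 50 after the annotated start, were matched by symbol in the RefSeq table of GRCm38.p6 for 69 of the 78 genes. Exact letters were searched on both strands for the cores bound by 3 factors known at promoters of nuclear genes for mitochondrial proteins. The NRF1 core GCATGCGC was in windows of 8 genes (11.6%, against 3.05% of all 27025 genes with a window), the ETS core CCGGAAGT in 12 (17.4%, against 4.31%) and the YY1 core AAGATGGC in 12 (17.4%, against 3.19%). At least 1 core was found for 29 genes (42.0%, against 9.91%), at least 2 for Mrpl33, Mrpl32 and Mrps27 (4.35%, against 0.614%), and all 3 for none (against 0.0222%). The 27025 genes were not limited to protein-coding genes, as the MRP genes were. These are matches of letters and carry no measurement of binding.

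The windows of 4 genes that the results turn on are printed, each 5′ to 3′ on the strand of its gene. Mrps6, called in both P24 bulk and TRAP IP, has none of the 3 cores, and the capitals in its window mark, in this order, the annotated first bases of Mrps6, Gm49711 and Slc5a3, which all read the same strand and lie at bases 185, 231 and 237 of the window. In Mrpl42 the capitals mark the YY1 core, whose first base is base 28 counted from the start. In Mrpl52 they mark the ETS core on the opposite strand from base 2. In Mrps27, the gene with the lowest ratio of IP to Input in Ctrl mice, they mark the ETS core on the opposite strand 49 bases before the start and the YY1 core from base 15.
Mrps6, chr16:92058086-92058385, plus strand: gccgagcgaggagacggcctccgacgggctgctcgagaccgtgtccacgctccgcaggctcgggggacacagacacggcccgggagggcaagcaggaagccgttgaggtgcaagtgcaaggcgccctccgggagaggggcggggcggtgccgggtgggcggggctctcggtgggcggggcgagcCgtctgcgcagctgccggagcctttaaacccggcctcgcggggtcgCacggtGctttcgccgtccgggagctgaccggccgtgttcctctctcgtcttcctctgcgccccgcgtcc
Mrpl42, chr10:95501900-95502199, minus strand: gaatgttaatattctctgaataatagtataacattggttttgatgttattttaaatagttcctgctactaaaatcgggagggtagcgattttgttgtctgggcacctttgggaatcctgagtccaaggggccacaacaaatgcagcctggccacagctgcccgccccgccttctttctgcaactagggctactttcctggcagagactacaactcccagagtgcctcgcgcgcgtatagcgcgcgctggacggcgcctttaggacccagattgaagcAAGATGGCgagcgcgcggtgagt
Mrpl52, chr14:54426659-54426958, plus strand: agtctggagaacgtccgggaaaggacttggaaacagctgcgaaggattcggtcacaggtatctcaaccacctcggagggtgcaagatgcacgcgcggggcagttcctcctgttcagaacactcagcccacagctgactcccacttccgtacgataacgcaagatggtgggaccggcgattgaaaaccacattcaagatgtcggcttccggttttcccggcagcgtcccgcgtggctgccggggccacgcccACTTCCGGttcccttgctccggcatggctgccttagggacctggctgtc
Mrps27, chr13:99344536-99344835, plus strand: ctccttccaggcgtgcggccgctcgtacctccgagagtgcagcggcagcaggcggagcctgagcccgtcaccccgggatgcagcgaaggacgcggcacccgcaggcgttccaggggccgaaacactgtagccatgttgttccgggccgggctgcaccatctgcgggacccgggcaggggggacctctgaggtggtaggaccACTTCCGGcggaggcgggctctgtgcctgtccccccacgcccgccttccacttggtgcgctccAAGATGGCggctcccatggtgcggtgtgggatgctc

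The levels of the MRP genes in control tissue differed by gene much more than by mouse. Per kilobase of exon, the mean level in Ctrl P24 bulk cortex ran over 24.98-fold around a median of 6.15 CPM per kb, with a median of 6.24 for the large subunit and 5.98 for the small subunit. The highest was Mrps21 with 31.1 ± 1.13 CPM per kb (SD, n = 4), a small-subunit protein with a bacterial counterpart, followed by Mrps6 with 22.8 ± 0.62, Mrps24 with 22.0 ± 1.17, Mrps12, a protein of the decoding centre, with 19.9 ± 1.09, and Mrpl41 with 19.9 ± 1.51. The lowest were Mrps10 with 1.25 ± 0.071 CPM per kb, Mrpl13 with 1.26 ± 0.056, Mrpl32 with 1.28 ± 0.11, Mrpl15 with 1.48 ± 0.14 and Mrps35 with 1.51 ± 0.15. Mrps21 lay above Mrps6 without overlap of the 4 mice, and in 74 of the 77 pairs of neighbours in the order the ranges overlapped. Levels per length rest on the summed exons of a gene, and the messages used in this tissue can be shorter than that sum.

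In Ctrl IP the order of the levels differed from that in bulk at the top, and part of this was shared with Input of the same mice, where Mrpl41 (55.9 CPM per kb) and Mrps21 (46.8) were also first and second and Mrps6 (18.2) was at rank 24. Mrpl41, a large-subunit protein specific to mitochondria, was highest with 159 ± 50.2 CPM per kb (SD, n = 3; 110.8 to 210.9), ahead of Mrps21 with 87.1 ± 3.69, Mrps28 with 81.8 ± 2.44, Mrpl34 with 71.3 ± 8.60 and Mrps33 with 62.9 ± 2.87. From Mrpl41 down to Mrpl34, no gene overlapped its neighbour in this order, and Mrpl34 overlapped Mrps33. At the other end were Mrps10 with 3.14 ± 0.23 CPM per kb, Mrpl23 with 3.26 ± 0.16, Mrps35 with 3.38 ± 0.39, Mrps30 with 3.75 ± 0.29 and Mrpl1 with 3.98 ± 0.57. The range was 50.6-fold around a median of 18.5 CPM per kb, and 73 of 77 neighbouring pairs overlapped. The median was 18.7 for the large and 13.4 for the small subunit. Here too the 5 highest genes have short summed exons (607 to 1667 bases) and the 5 lowest long ones (4295 to 8631).

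**Figure D1:**
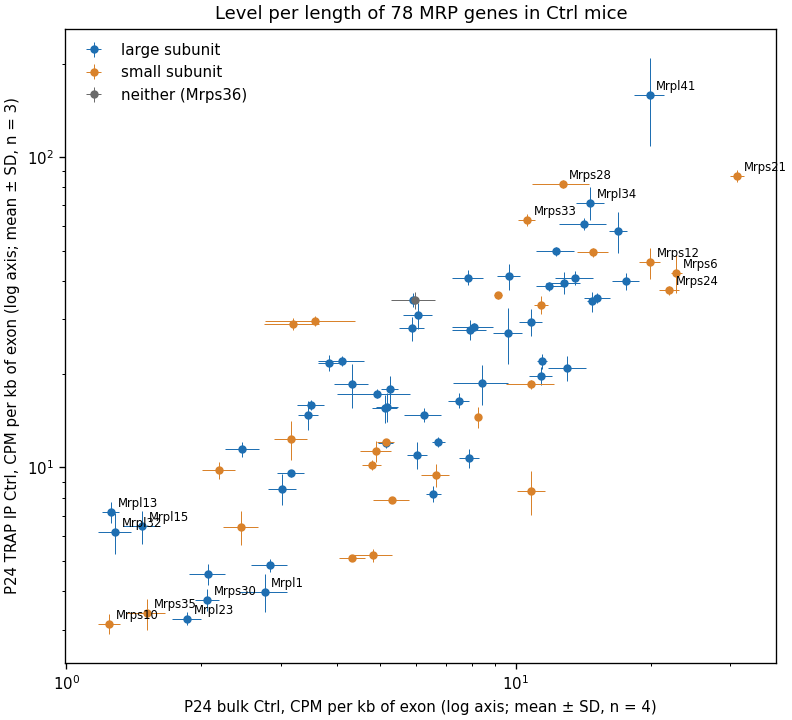
Level per length of each MRP gene in Ctrl mice at P24, in CPM per kb of exon, with bulk cortex on the horizontal and TRAP IP on the vertical axis (both log axes, colour by subunit). Points are group means with the SD over 4 mice (bulk) or 3 mice (IP). The genes run over 24.98-fold in bulk and 50.6-fold in IP. In both, the highest genes have short and the lowest genes long summed exons.

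Most MRP messages were more abundant in IP, which enriches ribosome-bound RNA of the tagged cells, than in the Input of the same Ctrl mice. Of the 78 genes, 54 were higher in IP and 6 lower, with a median log2 difference of 0.51, whereas 35.3% of all 24385 genes tested were higher and 35.7% lower with a median of −0.03 (edgeR). By library size scaling, 61 were higher and 4 lower with a median of 0.60, against 37.5% higher and 33.2% lower of all genes, and all 54 genes were among the 61. The large subunit had 38 higher and 3 lower of 51, and the small subunit 15 higher and 3 lower of 26. Genes with a bacterial counterpart had 32 higher and 2 lower of 44, and mitochondria-specific genes 19 higher and 4 lower of 29. By exon length, the shortest 26 genes had 20 higher and 0 lower (median 0.68). The middle 26 had 19 higher and 3 lower (median 0.48), and the longest 26 had 15 and 3 (median 0.47). In 48 of the 54 genes the call held under each of the 10 alternatives run (other scaling, DESeq2, no filter, the mouse as a block, and each library left out).

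The largest difference between IP and Input in Ctrl mice was that of Mrps14, a small-subunit protein with a bacterial counterpart. It had 97.65, 96.11 and 89.91 CPM in IP and 31.82, 32.74 and 34.19 in Input, a log2 difference of 1.51 (SE 0.09, edgeR adjusted p = 4.40e-08). Mrpl41 had 137.3, 98.38 and 187.3 CPM in IP against 46.97, 46.6 and 55.32 in Input (log2 1.50, SE 0.19, edgeR adjusted p = 2.07e-05). Its 3 IP libraries differed among themselves by more than those of Mrps14, and all lay above Input. Mrpl42, specific to the mitochondrial large subunit, had 71.49, 77.33 and 55.89 CPM in IP and 22.96, 26.89 and 25.09 in Input (log2 1.44, SE 0.13, edgeR adjusted p = 1.10e-06). Mrps28, of the small subunit, had 64.37, 65.81 and 62.02 CPM against 23.09, 24.22 and 26.38 (log2 1.37, SE 0.10, edgeR adjusted p = 1.34e-07). Mrps33, a mitochondria-specific protein of the small subunit, had 101.8, 110.4 and 102.5 CPM against 39.59, 39.2 and 47.51 (log2 1.31, SE 0.10, edgeR adjusted p = 2.96e-07). In these 5 genes every IP library was above every Input library. They were chosen for the largest called differences in these same libraries, so this separation adds no support.

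In all, 6 genes were lower in IP than in Input in Ctrl mice, namely Mrps27, Mrpl38, Mrpl19, Mrps2, Mrpl37 and Mrps26. Mrps27, an RNA-binding protein of the pentatricopeptide repeat type that is specific to mitochondria, had 20.89, 16.06 and 15.74 CPM in IP and 28.57, 29.51 and 27.81 in Input (log2 −0.72, SE 0.12, edgeR adjusted p = 0.000244). Its IP and Input values did not overlap, though it was named for its low ratio in these same libraries. Of its exon bases, 24.2% are shared with 6430562O15Rik on the opposite strand. Mrpl38, specific to the mitochondrial large subunit, had 28.72, 28.03 and 25.15 CPM in IP and 39.84, 44.1 and 34.76 in Input (log2 −0.55, SE 0.12, edgeR adjusted p = 0.00126). The difference was −0.43 (SE 0.11, edgeR adjusted p = 0.00431) for Mrpl19, whose exons partly overlap those of Gcfc2 on the opposite strand, and −0.38 (SE 0.10, edgeR adjusted p = 0.00521) for Mrps2. These 4 are of both kinds, as Mrpl19 and Mrps2 have bacterial counterparts. Mrps27, Mrpl38 and Mrpl19 were called under each of the 10 alternatives, and the number called lower was 3 when IP of Ctrl replicate 3 was left out. Mrpl37 at −0.27 (SE 0.11, edgeR adjusted p = 0.0361) and Mrps26 lost the call by library size scaling, where Mrpl37 had an adjusted p of 0.122 (0.0115 to 0.204 over its 10 alternatives).

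**Figure D2:**
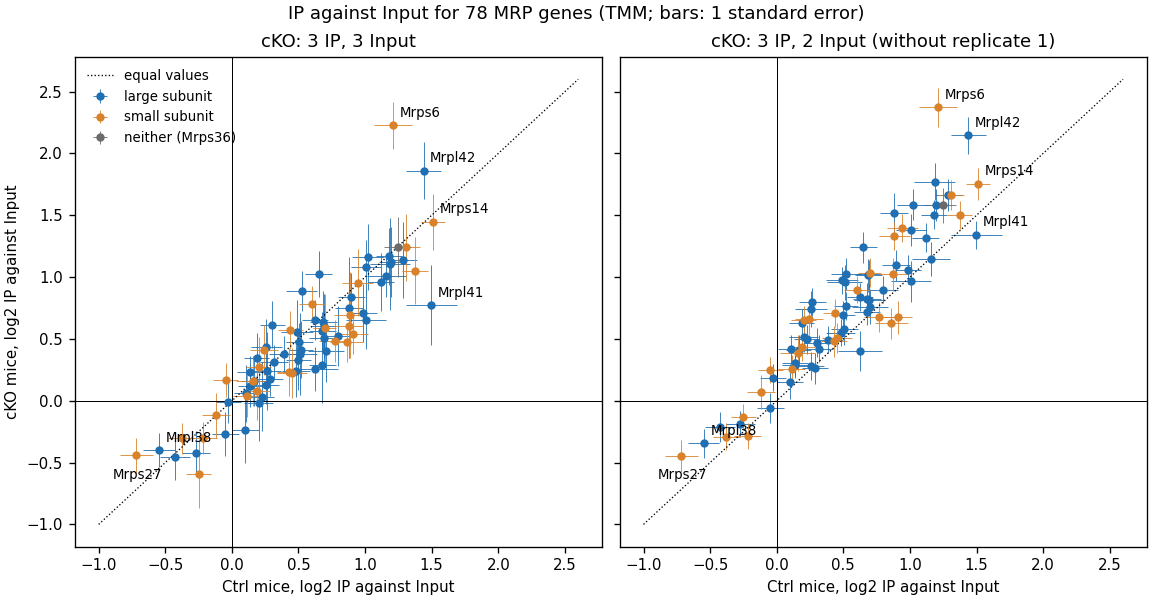
Log2 difference between IP and Input of each MRP gene (TMM scaling, bars of 1 SE, colour by subunit), with Ctrl mice on the horizontal and cKO mice on the vertical axis; the left panel uses all 3 cKO Input libraries and the right panel leaves out replicate 1. The cKO median is 0.46 on the left and 0.71 on the right, against 0.51 in Ctrl mice, and Mrps6 is highest in cKO mice at 2.23 and 2.37.

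In cKO mice the same ratio could be read only with attention to Input of cKO replicate 1. With all libraries, 29 MRP genes were higher in IP and 2 lower (median log2 difference 0.46), against 27.8% higher and 28.5% lower of all genes, and library size gave 36 higher and 2 lower (median 0.48) against 28.3% and 27.5%. Without that library, 64 were higher and 4 lower (median 0.71) against 34% and 33.1% of all genes. Leaving out Input of cKO replicate 3 instead gave 19 higher, and leaving out Input of cKO replicate 2 gave 20. All 29 genes were also higher in Ctrl mice (53.7% of the 54). Without Input of cKO replicate 1 the 2 genotypes shared 53 genes, 98.1% of the 54 and 82.8% of the 64. The share of all genes called in both genotypes was not counted, so these shares have no background beside them. The 2 lower genes were Mrps27 at −0.44 (SE 0.14, edgeR adjusted p = 0.0270; −0.45 without Input of replicate 1) and Mrpl38 at −0.40 (SE 0.14, edgeR adjusted p = 0.0343; −0.34 without it). With the mouse as a block neither passed, with edgeR adjusted p of 0.0644 and 0.0877 (0.00979 to 0.120 and 0.0231 to 0.141 over 10 alternatives).

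The ratio in cKO mice was led by 5 genes, and 3 of them led it in Ctrl mice too (Mrpl42, Mrps14 and Mrps33). Without Input of replicate 1 the 5 were Mrps6, Mrpl42, Mrpl52 at 1.77, Mrps14 and Mrpl13 at 1.66, and 2 of them led it in Ctrl mice. Mrps6 had 172.3, 236.5 and 188.4 CPM in IP and 50.32, 39.38 and 36.81 in Input (log2 2.23, SE 0.19, edgeR adjusted p = 3.07e-05; 2.37 without Input of replicate 1). Mrpl42 had 123.3, 126.8 and 95.66 CPM in IP and 43.25, 24.18 and 27.38 in Input (log2 1.86, SE 0.23, edgeR adjusted p = 0.000197; 2.15 without it). Mrps14 differed by 1.45 (SE 0.22, edgeR adjusted p = 0.000704; 1.76 without it). For Mrps33 and Mrps36 the difference was 1.24 each, with SE 0.27 and 0.24 and edgeR adjusted p of 0.00416 and 0.00239, and 1.66 and 1.58 (SE 0.12 and 0.14) without it. Mrpl41, second in Ctrl mice, had a difference of 0.77 in cKO mice (SE 0.32, edgeR adjusted p = 0.0675), and 1.34 with an edgeR adjusted p of 1.41e-06 when Input of replicate 1 was left out (0.195 at most over 10 alternatives).

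The test of the difference between genotypes in the ratio of IP to Input called no MRP gene (edgeR, 1 gene at an unadjusted p under 0.05, median −0.08), against 0.0388% higher and 0.0194% lower of all genes. By library size it also called none, against 0.0194% and 0.0272%. Without Input of cKO replicate 1 it called Mrps6 alone, against 0.93% higher and 0.703% lower of all genes. The log2 difference of Mrps6 was then 1.16 (SE 0.22, edgeR adjusted p = 0.0221). In that fit the MRP median was 0.21, against −0.03 for all genes, and 26 MRP genes had an unadjusted p under 0.05. The share of all genes at that unadjusted level is not given here, so this count has no background beside it. With all libraries the value for Mrps6 was 1.02 (SE 0.25, edgeR adjusted p = 0.159). With each mouse as a block it was 1.01 (SE 0.23, edgeR adjusted p = 0.274), again with no MRP gene called, 1 at an unadjusted p under 0.05 and a median of −0.01, and DESeq2 called it with an adjusted p of 0.0137 (0.0137 to 0.425 over 16 alternatives). The direction of the median of the 78 genes therefore depended on 1 library.

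Within IP, the comparison of genotypes asks whether the ribosome-bound MRP messages of the tagged cells differed in cKO mice. Of the 78 genes, 27 were higher in cKO and none lower, whereas 11.6% of the 23864 genes tested were higher and 8.42% lower. The median log2 fold change was 0.20, against −0.01 for all genes, with 67 of 78 values (85.9%) above 0. At an unadjusted p under 0.05 there were 35 MRP genes, and the share of all genes at that level is not given here. DESeq2 called 27 higher and none lower. By library size 16 were higher and none lower, all among the 27, with a median of 0.09 and 69.2% above 0, against 8.39% higher and 14.8% lower of all genes. The change of scaling moved the median of all genes from −0.01 to −0.13. A change of scaling shifts all genes by nearly the same amount. That the MRP median stood 0.21 above the median of all genes under both therefore adds no support. Among protein-coding genes alone, 10.5% were higher, with a median of −0.04.

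The higher genes came from both subunits and both kinds of protein. The large subunit had 16 of 51 (median 0.20) and the small subunit 10 of 26 (median 0.19), to which Mrps36 adds 1. Genes with a bacterial counterpart had 17 of 44 (median 0.23), mitochondria-specific genes 8 of 29 (median 0.15), and genes with no exon base shared with another gene 17 of 45. By exon length, the shortest 26 genes had 11 called (median 0.25), the middle 26 had 7 (median 0.16) and the longest 26 had 9 (median 0.16). Summed over the 78 genes, IP held 4098, 4038 and 3788 CPM in Ctrl and 4796, 4991 and 4645 in cKO. By library size the sums were 4318, 4227 and 3963 in Ctrl and 4818, 4679 and 4575 in cKO, so the groups did not overlap under either scaling.

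**Figure D3:**
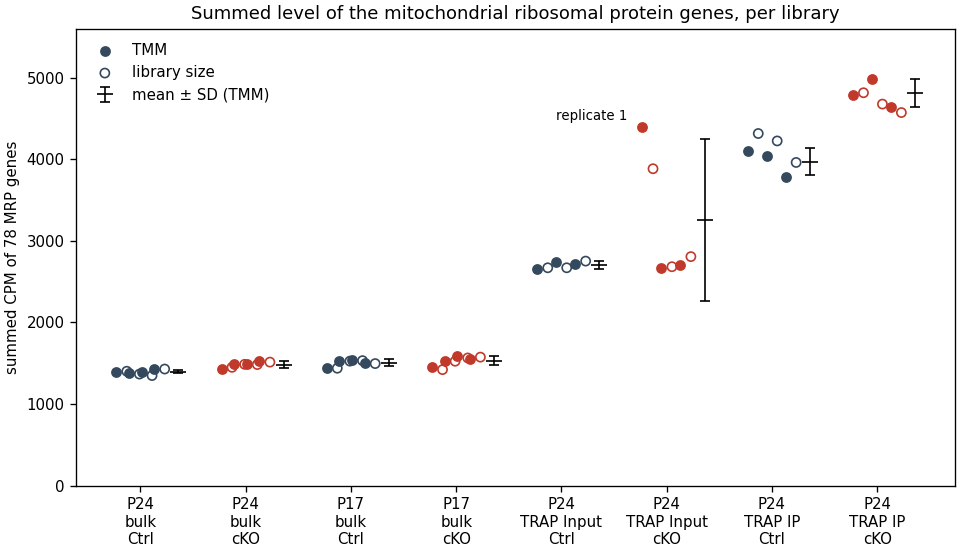
Summed CPM of the 78 MRP genes in each library, by group (dark for Ctrl and red for cKO; filled points are TMM scaling and open points library size; bars are the mean ± SD of the TMM values). By TMM, in IP the 3 cKO libraries (4645 to 4991) lie above the 3 Ctrl libraries (3788 to 4098), and in Input cKO replicate 1 (4401) lies above the other 5 libraries (2651 to 2742).

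The 5 largest changes in IP were those of Mrps6, Mrpl42, Mrpl34, Mrpl52 and Mrpl30. Mrps6, a small-subunit protein with a bacterial counterpart, had 67.23, 72.99 and 55.19 CPM in Ctrl and 172.3, 236.5 and 188.4 in cKO, a log2 fold change of 1.62 (SE 0.14, edgeR adjusted p = 6.17e-05; 1.50 by library size). Mrpl42 had 71.49, 77.33 and 55.89 CPM in Ctrl and 123.3, 126.8 and 95.66 in cKO (log2 0.76, SE 0.14, edgeR adjusted p = 0.00382; 0.65 by library size). Mrpl34, a large-subunit protein with a bacterial counterpart, had 47.24, 45.26 and 37.38 CPM in Ctrl and 66.42, 79.33 and 68.71 in cKO (log2 0.73, SE 0.11, edgeR adjusted p = 0.00176; 0.62 by library size). In all 3 genes the genotypes did not overlap, which adds no support, as they were chosen for the largest called changes in these libraries. Mrpl52, specific to mitochondria, had 32.56, 34.64 and 23.0 CPM in Ctrl and 45.26, 54.33 and 40.92 in cKO (log2 0.65, SE 0.15, edgeR adjusted p = 0.0137; 0.53 by library size). It lost the call when IP of cKO replicate 2 was left out (edgeR adjusted p = 0.0606, 7.54e-05 to 0.0606 over 10 alternatives). Mrpl30, of the large subunit with a bacterial counterpart, had 59.18, 62.52 and 50.93 CPM in Ctrl and 95.17, 93.17 and 77.6 in cKO (log2 0.63, SE 0.11, edgeR adjusted p = 0.00339; 0.52 by library size).

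The other 22 higher genes in IP had smaller changes. They were Mrpl12, Mrpl13, Mrpl17, Mrpl23, Mrpl33, Mrpl35, Mrpl36, Mrpl51, Mrpl53, Mrpl54, Mrpl55 and Mrpl57 of the large subunit, Mrps7, Mrps10, Mrps14, Mrps16, Mrps17, Mrps21, Mrps24, Mrps33 and Mrps34 of the small subunit, and Mrps36. Mrps36 had 47.02, 43.52 and 41.75 CPM in Ctrl and 63.9, 63.38 and 60.72 in cKO (log2 0.51, SE 0.09, edgeR adjusted p = 0.00329). Mrps33 had 101.8, 110.4 and 102.5 CPM in Ctrl and 147.6, 154.6 and 133.9 in cKO (log2 0.48, SE 0.09, edgeR adjusted p = 0.00544). Neither gene overlapped between genotypes, but both were already called from these same values. How many of all genes tested did not overlap was not counted. Mrps14, first in the ratio of IP to Input in Ctrl mice, changed by 0.30 (SE 0.09, edgeR adjusted p = 0.0467). Calls held under each of the 10 alternatives in 12 genes, namely Mrpl12, Mrpl30, Mrpl34, Mrpl35, Mrpl42, Mrpl53, Mrpl57, Mrps6, Mrps16, Mrps21, Mrps33 and Mrps36. No alternative dealt with exon bases shared with other genes. Of these 12 genes, Mrpl53 shares 88.0%, Mrps6 19.9% and Mrpl12 13.1% of its exon bases, and the rest share none. Among the other called genes the share is highest in Mrps34 (77.8%). The number called was 15 without IP of cKO replicate 2 and 17 without IP of Ctrl replicate 3.

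Mrpl41, the most abundant MRP message per length in Ctrl IP, was not among them. It had 137.3, 98.38 and 187.3 CPM in Ctrl IP and 111.9, 113.1 and 113.7 in cKO IP, with a log2 fold change of −0.31, the lowest of the 78 (SE 0.18, edgeR adjusted p = 0.258). The spread of the Ctrl mice spanned the cKO mice, and without IP of Ctrl replicate 2 it was called lower (log2 −0.52, SE 0.14, edgeR adjusted p = 0.0364; 0.0364 to 0.847 over 10 alternatives). Mrps28, high in IP by length, had 64.37, 65.81 and 62.02 CPM in Ctrl and 73.97, 72.7 and 72.71 in cKO, without overlap (log2 0.20, edgeR adjusted p = 0.130). Of the genes whose symbols misname their place, Mrps30 had a log2 fold change of −0.03 in IP and −0.05 between IP and Input of Ctrl mice, and neither passed. The 3 S18 paralogs share 1 bacterial ancestor. Mrps18a and Mrps18b stood at 0.11 and 0.17 in IP and at 0.14 and −0.12 between IP and Input of Ctrl mice, with neither called. Mrps18a was called between IP and Input of cKO mice when Input of replicate 1 was left out (log2 0.31, SE 0.11, edgeR adjusted p = 0.0272). By contrast, Mrps18c was higher in IP than in Input of Ctrl mice (log2 0.88, SE 0.11, edgeR adjusted p = 1.43e-05) and stood at 0.21 between genotypes (edgeR adjusted p = 0.199).

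**Figure D4:**
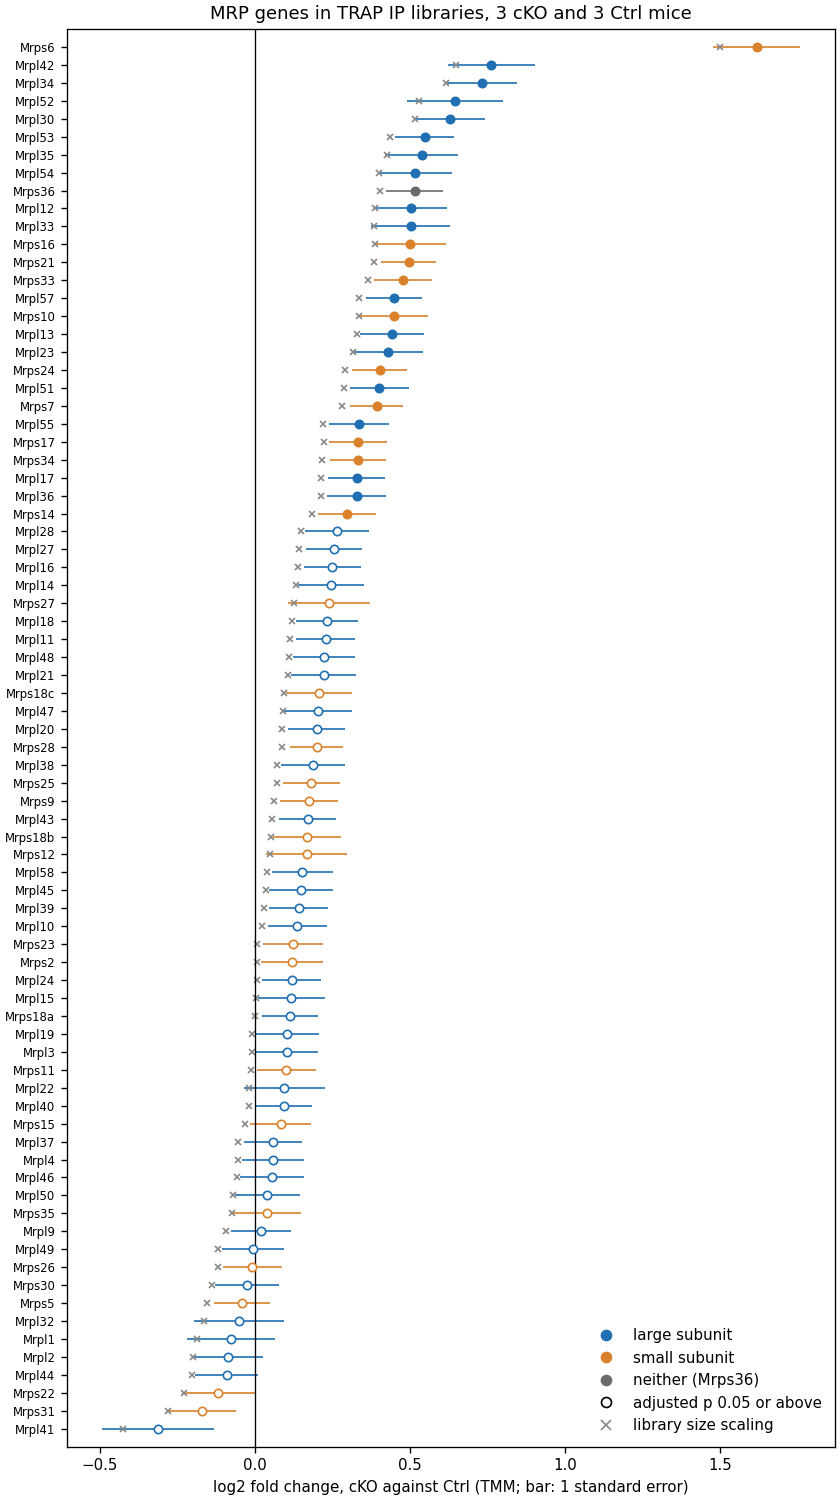
Log2 fold change of each of the 78 MRP genes in TRAP IP, cKO against Ctrl (3 mice each), with a bar of 1 SE, under TMM scaling, ordered by value; filled points were called, colour gives the subunit and crosses give library size scaling. Mrps6 stands at 1.62, Mrpl42 follows at 0.76, and Mrpl41 is lowest at −0.31.

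Markers and other gene groups in the same IP libraries were as follows. The summed astrocyte markers were 10840 to 14240 CPM in Ctrl and 11050 to 15180 in cKO, with 1 of 7 genes higher and 1 lower, and the neuron sum in cKO lay within the range of Ctrl. Cytosolic ribosomal protein genes were higher in cKO in 75 of 77 (median log2 0.62; 70 by library size), led by Rps4x at 1.05 (SE 0.16) and Rpl23a at 1.02 (SE 0.13). Nuclear-encoded respiratory chain subunits were higher in 57 of 83 (median 0.42; 43 by library size), led by Cox7a1 at 2.63 (SE 0.13) and Cox6b2 at 1.37 (SE 0.21), both isoforms of cytochrome c oxidase subunits. Whether the MRP calls in IP are separable from this wider shift was not tested.

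Genes that work with the MRPs had these calls in IP, where 11.6% of all genes were higher and 8.42% lower. Of 5 other subunits of the mitochondrial ribosome, 2 were higher (median 0.10), namely Chchd1 at 0.77 (SE 0.10, edgeR adjusted p = 0.000783) and Aurkaip1 at 0.28 (edgeR adjusted p = 0.0447). Of 13 mitochondrial translation factors, 1 was higher (median 0.05), Gfm2, which recycles ribosomes, at 0.43 (edgeR adjusted p = 0.0129). Among 20 mitochondrial aminoacyl-tRNA synthetases 2 were higher (median 0.04), Lars2 at 1.37 (SE 0.43, edgeR adjusted p = 0.0427) and Fars2 at 0.32 (edgeR adjusted p = 0.0341). The summed synthetases ran from 538.3 to 623.8 CPM in Ctrl IP and from 629.6 to 1341 in cKO IP, so the cKO mice differed widely. Values of Lars2 per mouse are not given here. Among 27 genes of ribosome assembly and ribosomal RNA modification, 2 were higher and 1 lower (median 0.01), including the methyltransferases Nsun4 at 0.63 (edgeR adjusted p = 0.00256) and Mrm2 at −0.51 (edgeR adjusted p = 0.0131). None of 9 genes of mitochondrial transcription was called (median −0.16). Differences in share between these groups were not tested.

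Between IP and Input of Ctrl mice, where 35.3% of all genes were higher and 35.7% lower, the calls in the same groups were as follows. Cytosolic ribosomal protein genes were higher in IP in 75 of 77 (median 0.98), led by Rpl10a at 2.02 (SE 0.10), the protein that carries the tag, and Rpl34 at 1.51, and respiratory chain subunits were higher in 68 and lower in 7 of 83 (median 0.75), led by Cox4i2 at 3.15 (SE 0.27). Transcripts of the tagged construct can be counted on Rpl10a, which was not tested. Translation factors were higher in 8 and lower in 1 of 13 (median 0.35), with the elongation factor Gfm1 at 2.48 (SE 0.11) and Guf1 at 1.51 (SE 0.14). Other ribosome subunits were higher in 2 of 5 (median −0.07), Chchd1 at 1.16 and Aurkaip1 at 0.52. Synthetases were higher in 6 and lower in 7 of 20 (median −0.07), with Aars2 at −1.41 and Vars2 at −1.01. Assembly and modification genes were higher in 7 and lower in 5 of 27 (median −0.03), with Mettl15 at 1.60 and Dhx30 at −1.31. Transcription genes were higher in 6 and lower in 2 of 9 (median 0.62), with Mterf2 at 0.99 and the polymerase Polrmt at −1.23.

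Input of the TRAP mice holds RNA of all cells of the homogenate, and no MRP gene was called there between genotypes (edgeR, 1 gene at an unadjusted p under 0.05, and none by DESeq2), against 0.0923% higher and 0.0168% lower of all genes under both scalings. The median log2 fold change was 0.29 (0.23 by library size), with 75 of 78 values above 0. This rested on cKO replicate 1, in which 74 of the 78 genes (94.9%) had their highest value of the 6 libraries, against 33.8% of all genes (85.9% against 24.4% by library size). Its summed MRP level was 4401 CPM (3886 by library size), whereas the other cKO libraries had 2666 and 2702 and Ctrl had 2651, 2742 and 2716. Without it the median was 0.01, again with no gene called and 1 at an unadjusted p under 0.05, against 0.421% and 0.0368% of all genes. In the same library cytosolic ribosomal protein genes summed to 14680 CPM against 6403 to 6808 in the other 5 libraries, and respiratory chain subunits to 19050 against 10060 to 10610. The summed astrocyte markers were 1621 CPM there, lowest of the cKO libraries (1758 and 2013), against 846 to 1030 in Ctrl.

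In bulk cortex 1 of the 78 genes was called, at P24, which is near the share called among all genes. At P24, Mrps6 was higher in cKO and no gene lower (edgeR, 4 genes at an unadjusted p under 0.05, and the same counts by DESeq2), against 1.26% higher and 0.462% lower of all 22495 genes, and library size gave the same gene against 1.39% and 0.356%. The median log2 fold change of the 78 genes was 0.04 (0.06 by library size). At P17 none was called (edgeR, 2 genes at an unadjusted p under 0.05, and none by DESeq2), against 0.066% higher and 0.0283% lower (0.0566% and 0.0283% by library size), with a median of 0.02. In bulk tissue, fewer cells of a type and less RNA per cell cannot be told apart. Summed MRP levels at P24 were 1388, 1378, 1397 and 1427 CPM in Ctrl (1398 ± 21.1, SD) and 1425, 1491, 1488 and 1524 in cKO (1482 ± 41.0), so that 1 cKO mouse lay within the range of Ctrl. By library size they were 1402, 1367, 1349 and 1429 in Ctrl and 1450, 1487, 1484 and 1514 in cKO, without overlap. At P17 they were 1506 ± 42.7 in Ctrl (1445 to 1542) and 1531 ± 57.1 in cKO (1457 to 1595), which overlapped in part.

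Mrps6 at P24 had 34.45 to 36.39 CPM in the 4 Ctrl mice and 37.69, 90.9, 78.3 and 111.9 in cKO replicates 1 to 4 (34.97 ± 0.95 against 79.7 ± 31.3, SD). All 4 cKO values exceeded the highest Ctrl value, replicate 1 by little. The log2 fold change was 1.19 (SE 0.24, edgeR adjusted p = 0.0277; 1.20 and 0.0198 by library size). Leaving out any other single mouse lost the call (edgeR adjusted p 0.0762 to 0.0919), whereas without cKO replicate 1 it was 1.42 with an adjusted p of 1.78e-06, which bounds the range over 12 alternatives at 1.78e-06 to 0.0919. That library also stood apart from the other cKO mice across genes. Among the 7 astrocyte markers, cKO replicate 1 had the lowest value of the 4 cKO mice for Gfap (631.6 CPM), Aqp4 (124.5) and Aldh1l1 (88.86), the highest for Aldoc (737.0), Apoe (987.3) and Slc1a3 (280.5), and the second lowest for Gja1 (117.9), and its sum of 2968 CPM was the lowest of the 4. The 7 astrocyte markers summed to 2143 to 2306 CPM in Ctrl and 2968 to 3161 in cKO at P24, with 3 genes higher and 1 lower, and their part in the Mrps6 result was not tested. At P17 Mrps6 had 29.6 ± 4.47 CPM in Ctrl (24.98 to 34.37) and 34.3 ± 8.07 in cKO (27.31 to 43.68), which overlapped (log2 0.21, SE 0.15). In the Input libraries it had 30.64, 30.12 and 22.88 CPM in Ctrl and 50.32, 39.38 and 36.81 in cKO (log2 0.60, SE 0.18, edgeR adjusted p = 0.812; 0.45 without cKO replicate 1).

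Whether the effect of genotype on the 78 genes differed between P17 and P24 was tested as an interaction, and no gene was called (edgeR, 3 genes at an unadjusted p under 0.05, and none by DESeq2), against 0.0342% higher and 0.0128% lower of all genes under both scalings. The median was 0.01. For Mrps6 the difference was 0.97 on the log2 scale (SE 0.33, edgeR adjusted p = 0.590). Without P24 cKO replicate 1 it was 1.21 (SE 0.21, edgeR adjusted p = 0.00550; 0.00550 to 0.850 over 20 alternatives).

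The Mrps6 gene (ENSMUSG00000039680) spans chr16:92058270-92112227 on the plus strand of GRCm38, and 19.9% of its exon bases are shared with Slc5a3 and Gm49711 on the same strand. Slc5a3, which encodes the sodium/myo-inositol cotransporter that takes up an organic osmolyte, spans chr16:92058322-92087473 within Mrps6, and was chosen for this comparison after its values were seen. At P24 it had 24.93, 24.95, 25.89 and 24.27 CPM in Ctrl and 25.96, 68.74, 58.56 and 89.27 in cKO replicates 1 to 4 (log2 1.28, SE 0.27, edgeR adjusted p = 0.0357). The order of the 4 cKO mice was the same as for Mrps6. In IP it had 11.67, 13.71 and 9.335 CPM in Ctrl and 35.79, 46.05 and 41.69 in cKO (log2 1.84, SE 0.15, edgeR adjusted p = 4.44e-05). Between IP and Input it differed by 0.42 in Ctrl mice (SE 0.20, edgeR adjusted p = 0.0733) and by 1.77 in cKO mice (SE 0.18, edgeR adjusted p = 7.93e-05; 1.68 without Input of replicate 1). At P17 it had 20.87, 16.1, 22.71 and 16.15 CPM in Ctrl and 17.96, 18.24, 30.31 and 25.86 in cKO, which overlapped (log2 0.29). How reads of the shared exon bases were divided between the genes is not given in the sources used here, so the part of Slc5a3 in the Mrps6 count was not tested. Gm49711 is not analysed here.

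**Figure D5:**
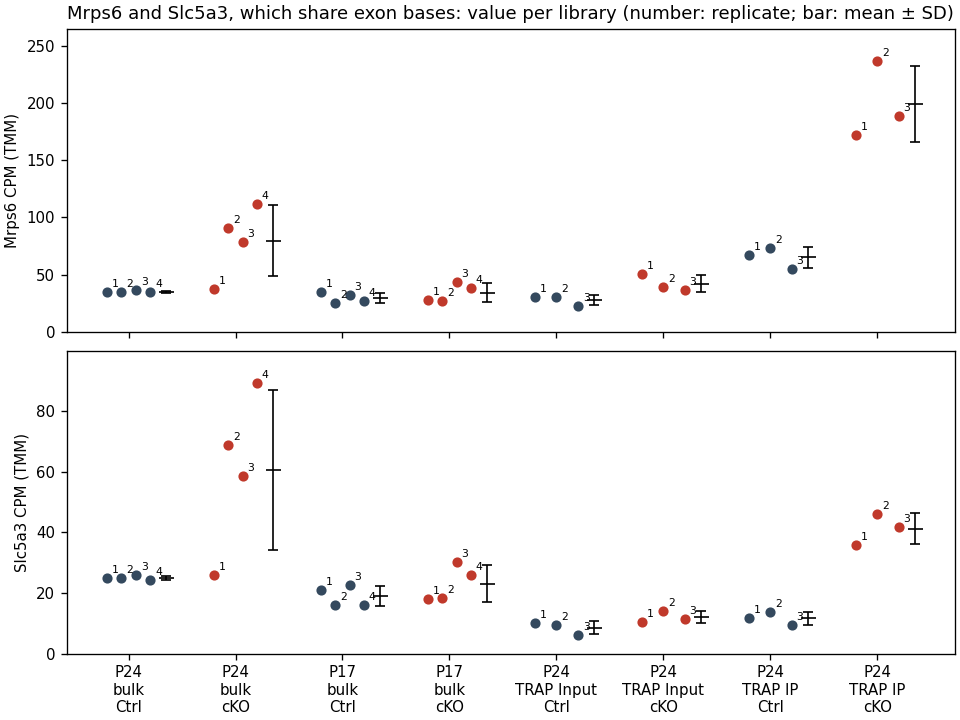
CPM of Mrps6 and of Slc5a3 in each library by group (points are mice numbered by replicate, dark for Ctrl and red for cKO; bars are the mean ± SD; TMM scaling). In P24 bulk 3 of 4 cKO mice lie far above the Ctrl mice in both genes and cKO replicate 1 lies near them, and in IP all 3 cKO mice lie above the Ctrl mice.

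Over the 6 comparisons of 2 groups, with TMM scaling and all libraries, 14 of the 78 genes were not called. The share of all genes called in none of the 6 was not counted, so this number has no background beside it. In Ctrl IP against Input alone, 35.3% of all genes tested were called higher and 35.7% lower. They were Mrpl2, Mrpl3, Mrpl10, Mrpl16, Mrpl28 and Mrpl58 of the large subunit with Mrps18a and Mrps30, and Mrps5, Mrps9, Mrps12, Mrps18b, Mrps23 and Mrps25 of the small subunit. Mrpl58, a peptidyl-tRNA hydrolase built into the large subunit, and Mrps12 of the decoding centre are among them. Library size scaling called 3 of them (Mrpl28, Mrpl58 and Mrps23), and leaving out Input of cKO replicate 1 called 8, so that Mrpl2, Mrpl10, Mrps9, Mrps18b, Mrps25 and Mrps30 were called under none of these 3 settings. Of the genes higher in cKO IP, Mrps6 alone was also called in bulk cortex at P24, where Mrpl42 stood at −0.07 (SE 0.08), Mrpl34 at 0.10 (SE 0.10) and Mrpl52 at −0.01 (SE 0.12).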

How the data were processed

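The data were 28 libraries, 1 mouse per library: 16 of bulk P24 and P17 cortex (RNA primed with oligo-dT) and 12 of TRAP IP and Input (mRNA taken with oligo-dT beads). The authors mapped reads with RNA STAR in Galaxy to MM10 and deposited raw counts per gene; the counting tool, its annotation and its use of strand are not given in the sources used here. Total counts set the precision and were 8855488 to 14575306 per bulk and 18433087 to 27242445 per TRAP library. Replicates differed by more than counting noise (chi-square per degree of freedom 2.79 to 89.8), so none were merged.

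From the counts, genes were filtered with filterByExpr (minimum count 10, minimum total 15, proportion 0.7), scaled by TMM and tested with edgeR 4.0.16 (R 4.3.3), using the quasi-likelihood test with only the groups compared in each fit, and p was adjusted over all genes tested. DESeq2 1.42.0, library size scaling, no filter, the replicate number as a block and each library left out were the alternatives. Code was tested on simulated data. Lengths are summed exons of the GRCm38 annotation.

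Named genes were, per comparison of 2 groups, the 5 MRP genes in each direction with the largest log2 fold change among those called with a mean log2 CPM of at least 1 (3 in interactions), the 5 highest and 5 lowest by level per kb in Ctrl P24 bulk and Ctrl IP, Mrps30, Mrps36 and the S18 paralogs, and 2 called genes per other list in IP and in Ctrl IP against Input; other names complete a count, and Slc5a3 was chosen after its values were seen. The MRP genes and the lists (other mitochondrial ribosome subunits, translation factors, aminoacyl-tRNA synthetases, assembly and rRNA modification, transcription, cytosolic ribosomal proteins, respiratory chain subunits, cell type markers) were chosen with earlier results of these data known. Mitochondrially encoded RNAs are not analysed here, and the targeted gene is not reported here.

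IP and Input of 1 number come from 1 mouse and so are paired by design, although their deviations from the group means correlated at only 0.0686 to 0.08 in Ctrl and −0.102 to 0.122 in cKO. Ctrl and cKO of the same number correlated at 0.167 to 0.38 in P17, which meets the limit of 0.1 for a pairing. The values were 0.0286 to 0.218 in P24 bulk, 0.0355 to 0.116 in IP and −0.0342 to 0.102 in Input. In IP each was above the highest correlation with another number (−0.0216 to −0.0107). The mice were littermates, but the labels do not say whether equal numbers mark a litter. Main tests left the numbers unpaired, P17 included, with the block as an alternative.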

Additional observations from a re-analysis of the deposited data

Results flagged for a closer look

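Within each group of 4 bulk libraries, 72 sets of values (the summed MRP level, Slc5a3, Mrps6 and the MRP genes with the highest and lowest levels per kb) were tested for 1 mouse far from the other 3 (Dixon's test), and 3 stood out, where chance flags about 1 in 20 groups. For Mrps6, Ctrl replicate 3 at P24 had 36.39 CPM, against 34.45 to 34.6 in the other 3 Ctrl mice. For Mrps24, cKO replicate 1 at P24 had 31.42 CPM, against 36.31 to 37.15 in the other cKO mice (cKO against Ctrl log2 0.14, SE 0.06, edgeR adjusted p = 0.393). For Mrps35, cKO replicate 2 at P24 had 15.12 CPM, against 12.41 to 12.87 (log2 0.02, SE 0.10, edgeR adjusted p = 0.970).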

How the results depend on the processing

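No named gene changed direction under an alternative in a comparison that names it, whereas the median of the fraction and genotype interaction went from −0.08 to 0.21 without Input of cKO replicate 1. In TRAP IP, 27 MRP genes were higher, against 16 by library size, and leaving out each library in turn gave 15 to 27 higher and 0 to 1 lower (Mrpl41, without Ctrl replicate 2). In P24 bulk 1 was higher, and 0 to 1 with each library left out (1 only without cKO replicate 1). In Ctrl mice 6 were lower in IP than in Input, against 4 by library size, by DESeq2 and with no filter, and 3 to 6 with each library left out, while 54 were higher (48 to 58). In cKO mice 29 were higher, and 19 to 64 with each library left out (64 without Input of replicate 1, 19 without Input of replicate 3), and 2 were lower, against 0 with no filter and 0 to 4 with each library left out (4 without Input of replicate 1). The interaction of fraction and genotype called 0 higher, against 1 by DESeq2, 1 with no filter and 0 to 1 with each library left out, each time Mrps6. The interaction of age and genotype called 0 higher, and 0 to 1 with each library left out (Mrps6, without P24 cKO replicate 1). Apart from the construction of these settings, with fewer libraries or more genes, the cause was not tested. At these depths and group sizes, a count of 0 at P17 or in Input is no sign that no gene differed.

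With the replicate number as a block (the mouse itself where IP and Input are compared, and each mouse within its genotype in the fraction and genotype interaction), the number of MRP genes higher and lower was 1 and 0 at P24, 0 and 0 at P17, 30 and 0 in IP, 0 and 0 in Input, 53 and 6 between IP and Input of Ctrl mice, 34 and 0 between IP and Input of cKO mice, and 0 and 0 in both interactions. The pairing lost the calls of Mrps27 and Mrpl38 in cKO mice and moved no other count by more than 5 genes. Of the alternatives for single named genes, list medians and the order by level, 301 kept their side of the threshold or, for medians, moved by less than the typical SE of a gene, 30 lost the call in the same direction and 5 medians moved by more.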
